A study of Mus musculus with 6 samples.

Results

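Open chromatin at the genes of the E proteins and their Id inhibitors was described from 6 ATAC-seq peak lists of mouse bone marrow. ATAC-seq uses a transposase that inserts sequencing adapters into accessible DNA. The genes were Tcf3, Tcf4 and Tcf12, which encode E proteins, and Id1, Id2 and Id3, which encode Id proteins. Peaks that shared 1 bp or more were joined across the lists, and a region belonged to a gene when that gene's interval in RefSeq (mm10) was the nearest protein-coding interval within 100 kb. By this rule 108 regions were members, of 69171 joined regions and of 65361 that had a gene within reach. Tcf4 had 36 regions, Tcf12 had 31, Id2 had 14, Id3 had 13, Tcf3 had 8 and Id1 had 6. Assignment to the nearest gene does not show which gene a region acts on.

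The cells came from 3 populations sorted by flow cytometry from naive Adig mice of the Balb/c strain. Adig mice carry a transgene in which regulatory sequences of Aire, the autoimmune regulator, drive a green fluorescent protein, so all groups share it and the gates read the transgene, not Aire itself. No age is given. The pc-BMACs were gated by the markers AireGFP+B220-CD138+TACI+. The plasma cells had the same gate without the reporter signal, AireGFP-B220-CD138+TACI+. The immature B cells were gated by AireGFP-B220+CD138-TACI-IgM+. Each population had 2 libraries of 2000 to 15000 cells, and whether these came from separate animals is not stated. The study set out to compare accessible chromatin between these subsets.

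E proteins are basic helix-loop-helix transcription factors that bind the E-box sequence as dimers. Id proteins carry the helix-loop-helix but no basic DNA-binding stretch, so a dimer of an E protein with an Id protein does not bind the E-box. In mice Tcf3 (E2A) is required for commitment to the B lineage, Tcf12 (HEB) acts beside it in early lymphocytes, and Tcf4 (E2-2) is required for plasmacytoid dendritic cells. Id2 is required for natural killer and innate lymphoid cells, Id3 restrains E proteins in developing T and B lymphocytes, and Id1 is best known from progenitors and endothelial cells.

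The start sites of 4 of these genes lay under peaks of all 6 lists, and their promoters are shown because they are the sites at which the populations shared their calls. RefSeq (GRCm38.p6, the assembly that mm10 names) gave a promoter for Tcf3, Tcf12, Id2 and Id3, with 250 bases before and 50 bases from the start site, printed 5′ to 3′ on the gene's strand. Capitals mark every match to the E-box CANNTG, which reads the same on both strands.
Tcf3, chr10:80433586-80433885, minus strand: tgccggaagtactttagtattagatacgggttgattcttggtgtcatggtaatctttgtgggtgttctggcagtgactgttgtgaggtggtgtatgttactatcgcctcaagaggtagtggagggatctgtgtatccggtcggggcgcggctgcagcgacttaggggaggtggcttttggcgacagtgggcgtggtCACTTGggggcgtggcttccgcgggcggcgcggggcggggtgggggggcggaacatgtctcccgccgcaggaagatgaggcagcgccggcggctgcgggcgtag
Tcf12, chr9:72111770-72112069, minus strand: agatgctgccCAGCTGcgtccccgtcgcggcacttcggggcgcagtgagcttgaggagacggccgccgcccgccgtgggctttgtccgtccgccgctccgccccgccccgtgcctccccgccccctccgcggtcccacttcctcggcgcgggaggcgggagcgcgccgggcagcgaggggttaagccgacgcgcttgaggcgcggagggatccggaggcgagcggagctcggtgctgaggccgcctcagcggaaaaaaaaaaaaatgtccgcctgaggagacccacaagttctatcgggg
Tcf12, start site inside the gene, chr9:71896047-71896346, minus strand: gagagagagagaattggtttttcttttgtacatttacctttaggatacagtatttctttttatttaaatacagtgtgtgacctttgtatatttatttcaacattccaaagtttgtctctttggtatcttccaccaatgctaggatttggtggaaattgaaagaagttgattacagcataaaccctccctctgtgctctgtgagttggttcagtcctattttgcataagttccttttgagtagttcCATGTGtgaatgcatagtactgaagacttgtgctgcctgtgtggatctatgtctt
Id2, chr12:25096043-25096342, minus strand: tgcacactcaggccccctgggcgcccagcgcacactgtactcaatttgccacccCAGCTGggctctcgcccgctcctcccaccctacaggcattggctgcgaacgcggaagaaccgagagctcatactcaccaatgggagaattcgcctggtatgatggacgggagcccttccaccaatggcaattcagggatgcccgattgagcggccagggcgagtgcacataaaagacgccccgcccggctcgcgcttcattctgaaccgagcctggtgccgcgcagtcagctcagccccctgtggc
Id3, chr4:136143572-136143871, plus strand: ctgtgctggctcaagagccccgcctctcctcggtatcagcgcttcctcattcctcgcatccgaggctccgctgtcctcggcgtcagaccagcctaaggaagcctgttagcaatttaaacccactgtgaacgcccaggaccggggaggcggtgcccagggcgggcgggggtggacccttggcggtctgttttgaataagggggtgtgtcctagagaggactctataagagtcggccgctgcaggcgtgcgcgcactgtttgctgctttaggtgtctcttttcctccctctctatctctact

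The table held 6 promoters of these genes, 3 of them for Tcf12, and the one not printed lies just inside the first Tcf12 start site. CANNTG was found in 5 of the 6, against 72.3% of 32851 RefSeq promoters of the same 300 bp, so its presence is common. The Id3 promoter held none. CAGCTG, the E-box form in the Id2 promoter at 196 bases before the start site and in the first Tcf12 promoter, was found in 2 of 6 promoters and in 16.3% of all promoters. CAGGTG or its reverse complement CACCTG was in 0 of 6 and in 20.2% of all promoters. A match describes the letters of this window and shows no binding. Peaks covered all 300 bases of the Tcf3, Id2 and both upstream Tcf12 promoters in all 6 lists. Of the Id3 promoter they covered 300 and 291 bases in pc-BMACs 1 and 2, and 300 in every plasma cell and immature B cell list. The Tcf12 promoter inside the gene was covered over 300 and 236 bases in pc-BMACs 1 and 2, 244 and 300 bases in plasma cell lists 1 and 2, and 300 bases in both immature B cell lists. Across all RefSeq promoters, 36.7% to 39.1% overlapped a peak in a given list.

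A peak list records where a peak was called and how wide it was. Because the files carry positions but not reads, depth is unknown for all libraries, and a region without a call is not shown to be closed. With 2 libraries a group the smallest two-sided exact permutation p is 0.333, so counts are given beside the same share over all assigned regions and no p is used. The lists held 38607 and 34070 peaks in pc-BMACs 1 and 2, 37821 and 36723 in plasma cell lists 1 and 2, and 51643 and 46534 in immature B cell lists 1 and 2. Immature B cells 1 stood apart in covered length, with 36.9 Mb against 26.0 Mb in its replicate and 21.5 to 28.7 Mb in the other populations. Calls were therefore more frequent in immature B cells over all genes.

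Over the 108 regions, peaks were called at 70 and 62 in pc-BMACs 1 and 2, at 57 and 62 in plasma cell lists 1 and 2, and at 78 and 70 in immature B cell lists 1 and 2. As a share these were 64.8% and 57.4% in pc-BMACs, against 56.3% and 48.8% of all assigned regions in the same lists. In plasma cells they were 52.8% and 57.4%, against 52.8% and 51.3% of all assigned regions. In immature B cells they were 72.2% and 64.8%, against 73.8% and 64.9%. The pc-BMAC and plasma cell values overlapped. Of the 108 regions, 32 were called in all 6 lists (29.6%, against 30.6% of all assigned regions) and 67 overlapped a member gene.

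**Figure D1:**
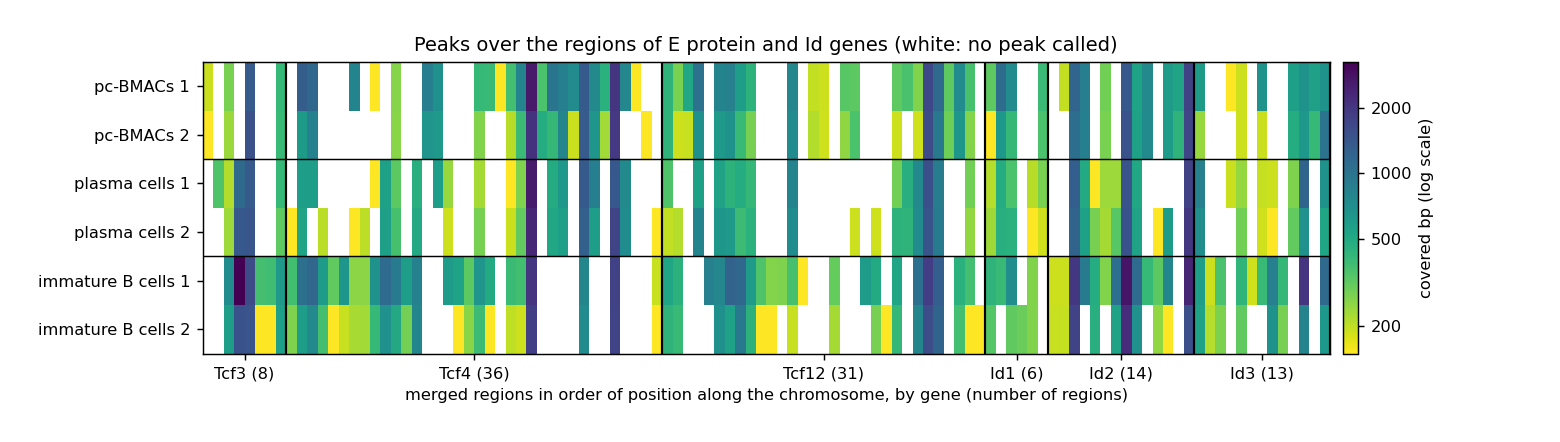
Each column is a merged region of an E protein or Id gene in order of position, and each row a peak list, with pc-BMACs at the top. Colour gives the covered bp on a log scale and white means that no peak was called; columns filled in all 6 rows are the 32 shared regions, and columns filled in the top rows alone are pc-BMAC regions, most of them in Tcf4 and Tcf12.

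**Figure D2:**
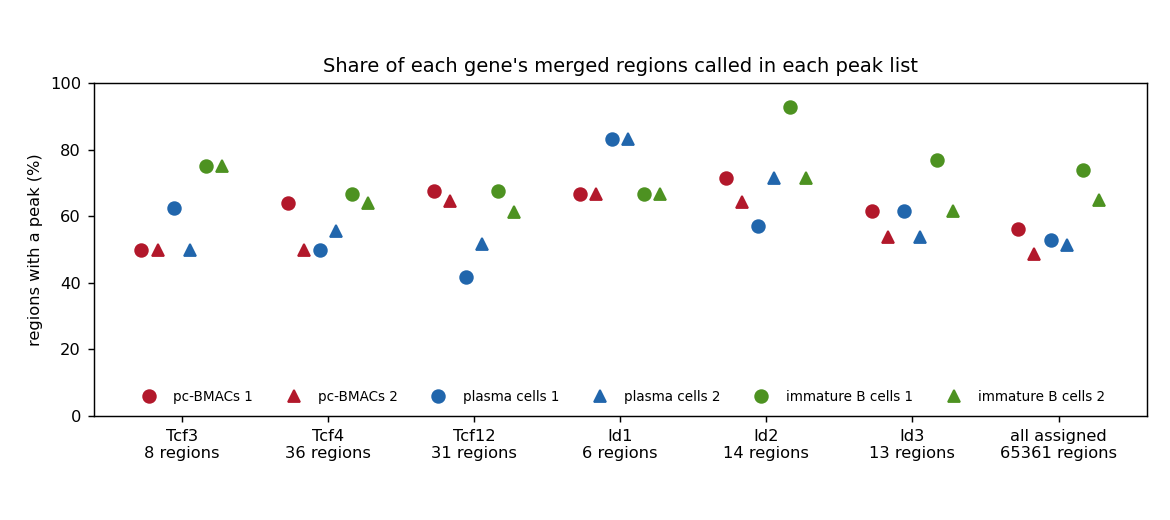
Points give the percentage of each gene's regions with a peak in each of the 6 lists, with circles for library 1 and triangles for library 2 of a population, and the last position gives all 65361 assigned regions. For Tcf12 the pc-BMAC points (67.7% and 64.5%) lie above the plasma cell points (41.9% and 51.6%). For Tcf3 the immature B cell points (75% in both) lie above all others of that gene. Immature B cell points also lie highest at the last position, at 73.8% and 64.9%, where the remaining lists range from 48.8% to 56.3%.

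At Tcf3 a wide region had peaks in plasma cells and immature B cells and none in pc-BMACs. The gene encodes E12 and E47 by alternative splicing and spans 24.4 kb of chromosome 10 (80409541 to 80433976). Of its 8 regions, 4 and 4 were called in pc-BMACs 1 and 2, 5 and 4 in plasma cell lists 1 and 2, and 6 and 6 in immature B cell lists 1 and 2. The immature B cell counts did not overlap those of pc-BMACs, as held for 32.4% of genes with a region, nor those of plasma cells, as held for 30.6% of genes. Region 4 of Tcf3 (chromosome 10, 80429210 to 80432449, 3240 bp) lies inside the gene, beside the region over the start site. Peaks covered 0 and 0 bp of it in pc-BMACs 1 and 2, 1115 and 1397 bp in plasma cell lists 1 and 2, and 3240 and 1494 bp in immature B cell lists 1 and 2. The peaks there were among the wider ones of each of the 4 lists that had them, at or above the 87.6th percentile of width. The neighbouring region over the start site (80432861 to 80434467) was called in every list, with 1335 and 1510 bp in pc-BMACs 1 and 2, 1364 and 1416 bp in plasma cell lists 1 and 2, and 1607 and 1446 bp in immature B cell lists 1 and 2.

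Of all assigned regions, 3045 had peaks at least this high in the width ranking in all 4 plasma cell and immature B cell lists, a comparison chosen after the value was seen. Only 6 of them (0.197%) had no peak in either pc-BMAC list, and the Tcf3 region was the 1 member among them, of 7 member regions as wide. The other 5 lay at Pfn1, Tspan14, Btbd19, Lhpp and Junb. Pfn1 encodes the actin-binding protein profilin and is active in most cells. Its region was covered over 0 and 0 bp in pc-BMACs, 2733 and 2402 bp in the plasma cells, and 3306 and 2839 bp in the immature B cells. That of Junb, a subunit of the transcription factor AP-1, was covered over 0 and 0 bp in pc-BMACs, 4771 and 4414 bp in the plasma cells, and 7155 and 6353 bp in the immature B cells. All 6 regions overlap their genes. Whether such wide peaks were absent from the pc-BMAC data or were lost while the lists were made was not tested and cannot be read from positions alone, so the 0 bp values record a missing entry in the lists.

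The other Tcf3 regions that differed between populations were narrower. Region 1 of Tcf3 (80418425 to 80418638) was called in pc-BMACs alone, over 191 and 150 bp. Regions 6 and 7, at 8992 and 10387 bp upstream of the gene, were called in immature B cells alone, over 373 and 150 bp and over 383 and 150 bp in libraries 1 and 2. The 150 bp peaks are at the smallest width that the lists hold. Regions 3 and 8 were called in every list, and region 2 had a peak in plasma cells 1 and in no other list.

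Tcf4 had the largest number of member regions. It spans 345 kb of chromosome 18 (69343429 to 69687967), and 35 of its 36 regions overlapped it. Peaks were called at 23 and 18 regions in pc-BMACs 1 and 2, at 18 and 20 in plasma cell lists 1 and 2, and at 24 and 23 in immature B cell lists 1 and 2. The pc-BMAC counts overlapped those of both other populations, and the immature B cell counts lay above those of plasma cells, the direction seen for 30.6% of genes. Divided at the midpoint of the gene, a split chosen after the values were seen, the side of lower coordinates had 16 regions. There 7 and 5 were called in pc-BMACs, 8 and 8 in the plasma cells, and 14 and 13 in the immature B cells. On the side of higher coordinates, with 19 regions, 16 and 13 were called in pc-BMACs, 10 and 11 in the plasma cells, and 9 and 9 in the immature B cells. These counts describe 1 gene, and other genes were not divided in this way.

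Regions 25 to 33 of Tcf4 form a 62.3 kb stretch (69604766 to 69667070) that was picked out after its values were seen. Of these 9 regions, 9 and 8 were called in pc-BMACs 1 and 2, 6 and 6 in plasma cell lists 1 and 2, and 2 and 2 in immature B cell lists 1 and 2. Over all assigned regions the called shares were 56.3% and 48.8%, 52.8% and 51.3%, and 73.8% and 64.9%, in the same order. Regions 26, 27 and 30 were called in both pc-BMAC and both plasma cell lists and in no immature B cell list. Region 27 (69613755 to 69614639), for example, was covered over 861 and 804 bp in pc-BMACs, 629 and 570 bp in the plasma cells and 0 bp in both immature B cell lists. Regions 14, 25, 28 and 31 were called in pc-BMACs alone. Among these region 14 (69500605 to 69501470) was the widest, with 866 and 654 bp in pc-BMACs 1 and 2. Region 28 had 739 and 193 bp, so its width differed widely between the replicates. Region 15 was called in pc-BMACs and in plasma cells 1 alone, and region 33 in both plasma cell lists and pc-BMACs 1 alone.

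Other Tcf4 regions, most of them at lower coordinates, were called in immature B cells. Regions 5, 6, 12, 17 and 18 were called in both immature B cell lists alone, and regions 1, 4, 8 and 36 in these and plasma cells 2. Regions 10 and 13 were called in plasma cells and immature B cells but not in pc-BMACs. Region 10 (69471640 to 69472749) was covered over 0 and 0 bp in pc-BMACs, 561 and 573 bp in the plasma cells, and 1110 and 684 bp in the immature B cells. The region at the low-coordinate end of the gene (69343991 to 69345363) was called in all lists, over 1308 and 605 bp in pc-BMACs, 589 and 538 bp in the plasma cells, and 1043 and 581 bp in the immature B cells. The widest shared region, 24 (69591560 to 69594212), had 2619 and 2078 bp in pc-BMACs, 2606 and 2323 bp in the plasma cells, and 2035 and 1839 bp in the immature B cells. Regions 11, 19, 22, 23, 29 and 32 were also called in all lists. In 14 of the 36 regions the replicates of some population differed in their call, among them regions 3, 7, 9, 16, 20, 21, 34 and 35.

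At Tcf12 more regions were called in each pc-BMAC list than in either plasma cell list. The gene spans 268 kb of chromosome 9 (71844252 to 72111893), and 24 of its 31 regions overlapped it. Peaks were called at 21 and 20 regions in pc-BMACs 1 and 2, at 13 and 16 in plasma cell lists 1 and 2, and at 21 and 19 in immature B cell lists 1 and 2. The pc-BMAC counts lay above the plasma cell counts without overlap, as they did for 11.1% of genes with a region, and overlapped those of immature B cells. Both pc-BMAC lists and neither plasma cell list had 6 of the 22 regions called in these lists (27.3%, against 8.48% of all assigned regions), while 0 showed the opposite pattern (against 8.99%). With peaks of at least 300 bp these counts were 2 and 1. Regions 3, 15, 16, 18 and 28 were called in pc-BMACs alone. Most were narrow. Region 3 (71878006 to 71878523) had 518 and 194 bp, region 16 had 190 and 188 bp, and region 28, at 51620 bp upstream of the gene, had 323 and 297 bp in pc-BMACs 1 and 2. Region 29 (72166255 to 72166996) was the 1 member of all 108 called in pc-BMACs and immature B cells but not plasma cells. It was covered over 737 and 640 bp in pc-BMACs, 0 and 0 bp in the plasma cells, and 454 and 375 bp in the immature B cells.

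Region 4 of Tcf12 (71888138 to 71889177) was called in pc-BMACs and plasma cells alone, over 1032 and 697 bp in pc-BMACs, 567 and 809 bp in the plasma cells and 0 bp in both immature B cell lists. Region 6, which holds the start site inside the gene, was called in every list, with 810 and 612 bp in pc-BMACs, 554 and 640 bp in the plasma cells, and 779 and 691 bp in the immature B cells. The region over the upstream start sites, 26 (72110573 to 72112510), had 1673 and 1610 bp in pc-BMACs, 1536 and 1452 bp in the plasma cells, and 1865 and 1571 bp in the immature B cells. Shared region 25 was narrower in pc-BMACs, with 267 and 187 bp, than in plasma cells, with 765 and 737 bp, and immature B cells, with 1053 and 797 bp. Regions 7, 8, 9, 13 and 23 inside the gene were also called in every list. Regions 10, 11 and 17 were called in immature B cells alone, with widths of 150 to 348 bp. Region 19 was called in both pc-BMAC lists and plasma cells 2, region 24 in both plasma cell lists and pc-BMACs 1, and region 21 in both immature B cell lists and plasma cells 2. Regions 5, 12, 14, 20 and 22 had a peak in 1 immature B cell list alone. No Tcf12 region was called in plasma cells and immature B cells alone.

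**Figure D3:**
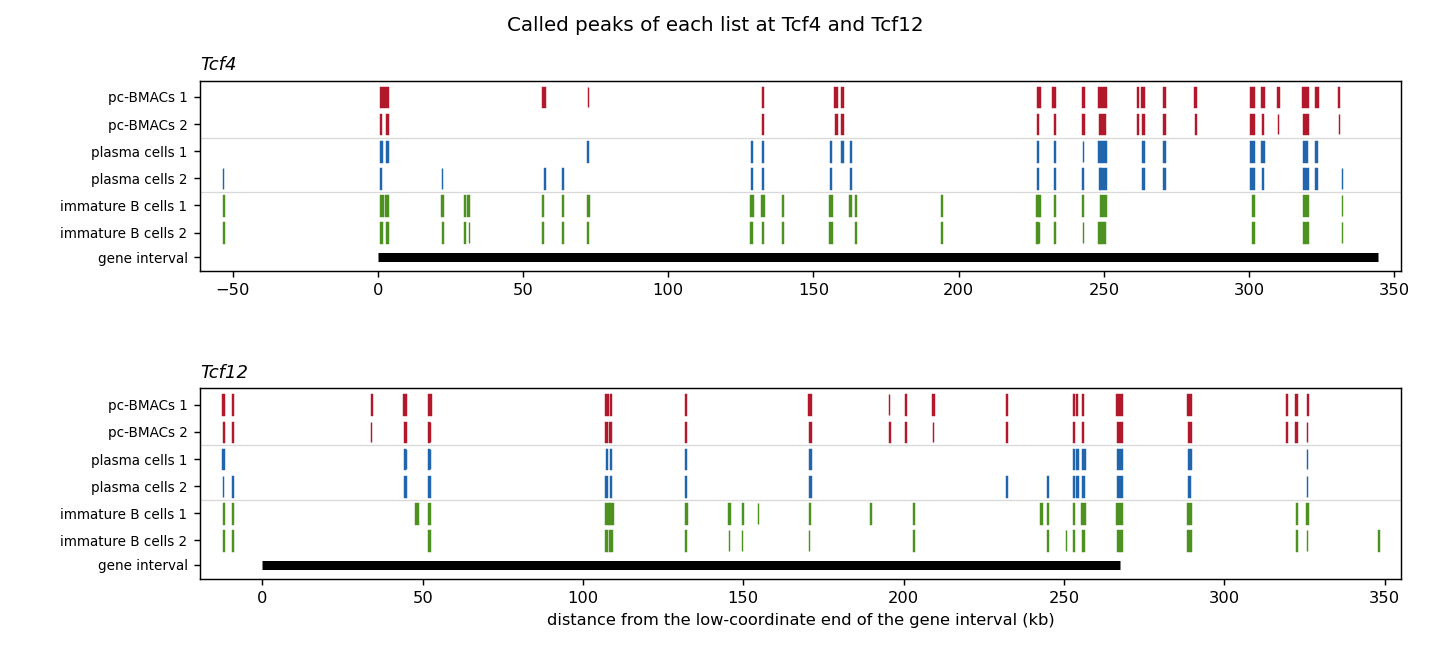
Called peaks at Tcf4 (top) and Tcf12 (bottom), drawn to scale along the distance in kb from the low-coordinate end of the gene interval, with 1 row per list and pc-BMACs above plasma cells and immature B cells. In Tcf4 the immature B cell rows are filled on the left, and on the right, over regions 25 to 33, they have 2 of 9 regions where pc-BMACs have 9 and 8.

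Id1, whose gene spans 1160 bp of chromosome 2 (152736251 to 152737410), had 6 regions. Peaks were called at 4 and 4 in pc-BMACs, 5 and 5 in the plasma cells, and 4 and 4 in the immature B cells. The plasma cell counts lay above both other populations by 1 region, a pattern that held for 12.2% of genes against pc-BMACs and 6.16% of genes against immature B cells. Region 3, over the low-coordinate end of the gene, was called in all lists, with 740 and 421 bp in pc-BMACs, 356 and 454 bp in the plasma cells, and 716 and 317 bp in the immature B cells. Region 2, 530 bp outside that end, was called in every list but immature B cells 2. A pair of neighbouring regions at higher coordinates split the populations. Region 5 (152742517 to 152742790) was called in plasma cells, over 208 and 150 bp, and immature B cells, over 267 and 270 bp, but not in pc-BMACs. Region 6 (152743309 to 152743721) was called in pc-BMACs, over 397 and 360 bp, and plasma cells, over 278 and 187 bp, but not in immature B cells.

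Id2 had wide shared regions far upstream of the gene as well as at its start site. The gene spans 2294 bp of chromosome 12 (25093799 to 25096092), and 11 of its 14 regions lay upstream of it. Peaks were called at 10 and 9 regions in pc-BMACs, 8 and 10 in the plasma cells, and 13 and 10 in the immature B cells, and these counts overlapped between all populations. The region over the start site was called in every list, with 1194 and 1066 bp in pc-BMACs, 1294 and 1218 bp in the plasma cells, and 1963 and 1722 bp in the immature B cells. Region 8, 68205 bp upstream, had 1391 and 1495 bp in pc-BMACs, 1451 and 1493 bp in the plasma cells, and 2736 and 2190 bp in the immature B cells. Region 14, 92484 bp upstream, had 1759 and 1705 bp in pc-BMACs, 1791 and 1974 bp in the plasma cells, and 2359 and 1538 bp in the immature B cells. Both were covered over more bp than the start-site region in every list, except region 14 in the second immature B cell list. Region 9, between them, was also called in every list.

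Between the shared Id2 regions, smaller ones differed. Regions 5 and 7, at 36879 and 59003 bp upstream, were called in plasma cells and immature B cells but not in pc-BMACs. Region 7 (25155095 to 25156150) was covered over 0 and 0 bp in pc-BMACs, 235 and 333 bp in the plasma cells, and 1056 and 551 bp in the immature B cells. Region 13 (25182634 to 25183171) was called in pc-BMACs alone, over 538 and 438 bp. Region 10 (25172460 to 25173317) was covered over 767 and 745 bp in pc-BMACs, 0 and 0 bp in the plasma cells, and 413 and 0 bp in immature B cell lists 1 and 2. Region 1 was called in immature B cells alone, over 189 and 195 bp, and region 11 in the immature B cells and plasma cells 2. When genes of any type could be nearest, Id2 had 0 pc-BMAC regions against plasma cells, where protein-coding genes gave 2. Beyond the limit of 100 kb, 29 more regions had Id2 as their nearest gene and were left out, the first at 101730 bp and called in immature B cells alone. For Tcf4 18 regions lay beyond the limit, the first at 104693 bp.

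Id3 lies on chromosome 4 (136143822 to 136145392, 1571 bp) and had 13 regions, 10 of them upstream. Peaks were called at 8 and 7 in pc-BMACs, 8 and 7 in the plasma cells, and 10 and 8 in the immature B cells, with overlap between all populations. The region over the gene (136143199 to 136145207) was covered over 665 and 627 bp in pc-BMACs, 1203 and 687 bp in the plasma cells, and 2009 and 823 bp in the immature B cells. The regions next to it divided the populations. Region 10, at 2978 bp upstream, was called in pc-BMACs over 573 and 483 bp and in plasma cells over 271 and 312 bp, but in no immature B cell list. Region 12, at 1298 bp downstream (136146690 to 136147245), was called in pc-BMACs alone, over 556 and 412 bp.

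Farther upstream 3 Id3 regions belonged to immature B cells alone (23.1% of 13, against 13.6% of all assigned regions). These were regions 2, 3 and 9, at 37625, 36644 and 14103 bp. Region 8 (136127330 to 136128181) was covered over 0 and 0 bp in pc-BMACs, 190 and 150 bp in the plasma cells, and 852 and 674 bp in the immature B cells. The plasma cell peaks there were narrow, at or near the smallest width in the lists. When genes of any type could be nearest, Id3 had 0 immature B cell regions against pc-BMACs, where protein-coding genes gave 4.

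**Figure D4:**
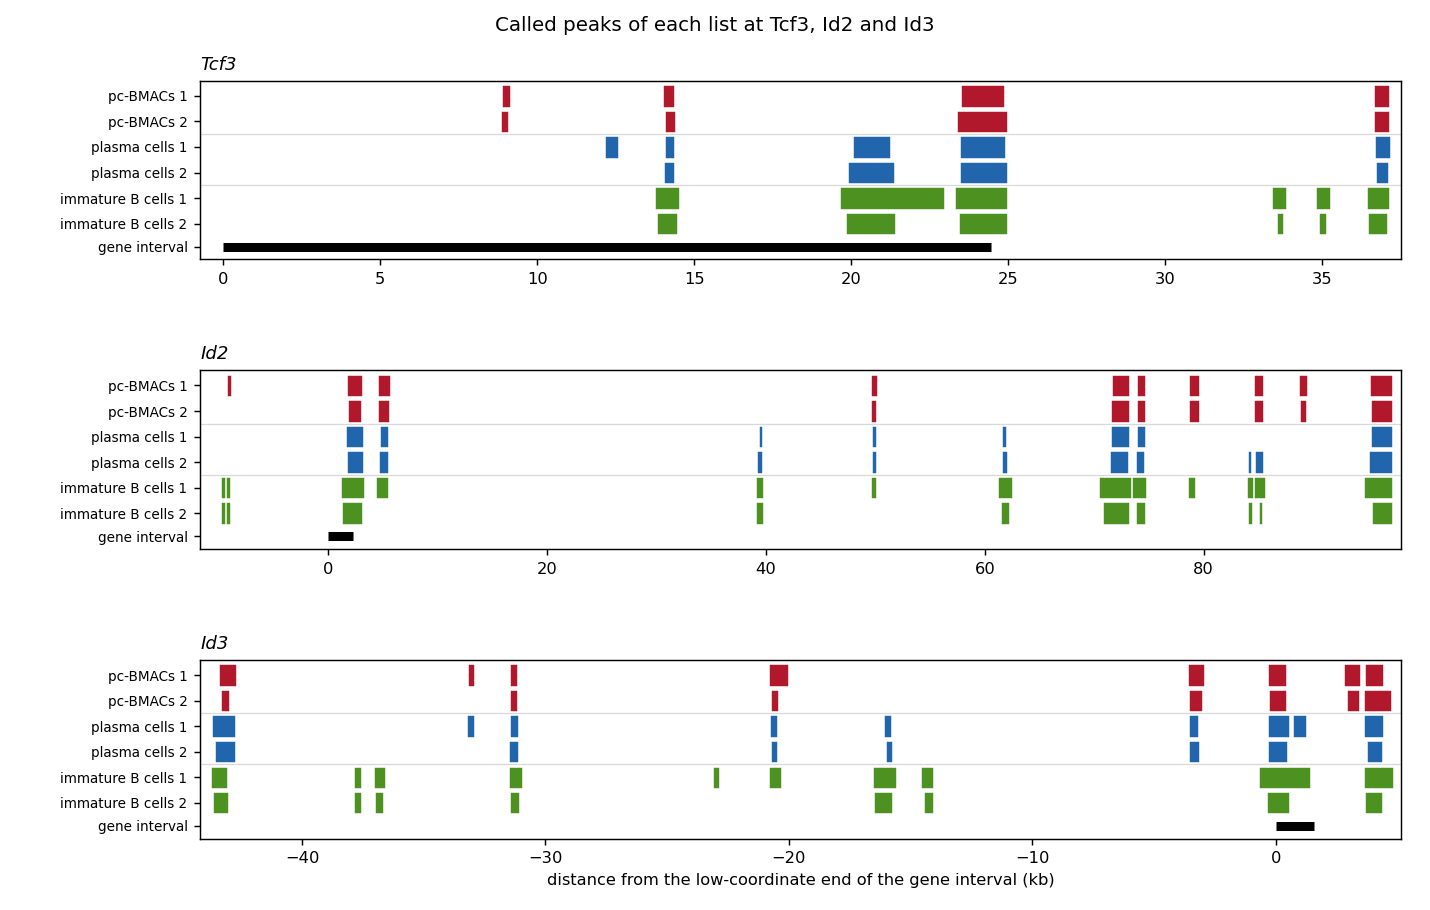
Called peaks at Tcf3, Id2 and Id3, drawn to scale along the distance in kb from the low-coordinate end of each gene interval, with 1 row per list and pc-BMACs at the top of each panel. The wide peaks of Tcf3 region 4 are present in the plasma cell and immature B cell rows and have no entry in either pc-BMAC row, where a loss while the lists were made was not tested, and the wide upstream Id2 regions 8 and 14 are present in all 6.

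In the comparison with plasma cells, both pc-BMAC lists and neither plasma cell list had 14 of the 86 regions called in these 4 libraries (16.3%, against 8.48% of all assigned regions). This share came closer to that of all regions under some other rules. It was 12.7% against 10.2% for peaks of at least 300 bp and 20.3% against 15.0% where peaks had to cover 50% of a region. Without pc-BMACs 2 it was 21.2% against 17.9%. Merging within 100 bp gave 17.6% against 8.46%, and leaving out plasma cells 2 gave 21.2% against 10.8%. A 10 kb limit gave 15.9% against 8.68%, and genes of any type gave 15.0% against 8.43%. Under the main rule the opposite pattern held for 8 regions (9.30%, against 8.99%), and 42 were called in all 4 libraries (48.8%, against 48.3%). The 14 regions were 6 of Tcf12, 4 of Tcf4, 2 of Id2, 1 of Tcf3 and 1 of Id3. Immature B cells also lacked 12 of them in both lists, as they lacked 2962 of 4079 such regions over all assigned regions. Of the 8 plasma cell regions, 7 had peaks from each immature B cell library: 2 at Tcf4, 2 at Id2, and 1 each at Tcf3, Id1 and Id3. Over all assigned regions this held for 3059 of 4325 such plasma cell regions. A region of plasma cells alone among the 3 populations was found at 0 of 108 members and at 1.51% of all assigned regions. The E protein genes had 11 pc-BMAC and 4 plasma cell regions of 59, and the Id genes 3 and 4 of 27. Without plasma cells 1 the counts were 16 for pc-BMACs (18.8%, against 12.6% of all regions) and 14 for plasma cells (16.5%, against 15.0%). The surplus of pc-BMAC over plasma cell regions was thus small without that library, while over all regions plasma cells had the larger share.

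Set against immature B cells, pc-BMACs had 20 of 107 regions to themselves (18.7%, against 10.5% of all assigned regions) and immature B cells had 27 (25.2%, against 23% of all). Tcf4 gave 8 and Tcf12 gave 7 of the 20. Of the 27, Tcf4 gave 11, Tcf12, Id2 and Id3 gave 4 each, Tcf3 gave 3 and Id1 gave 1. With lists of equal length, the 34070 widest peaks of each, the counts were 19 for pc-BMACs (20.7%, against 16.1% of all regions) and 15 for immature B cells (16.3%, against 15.1%). The order thus turned round over all regions as it did over the members. In no member did both pc-BMAC libraries have more called regions than both immature B cell libraries, as 9.94% of genes did.

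Between plasma cells and immature B cells, 8 of 93 regions were called in plasma cells alone of the pair (8.60%, against 6.46% of all assigned regions) and 17 in immature B cells alone (18.3%, against 18.4%). Both pc-BMAC lists had 6 of the 8 plasma cell regions, and 2440 of 3783 such regions over all assigned regions. The 6 lay at Tcf4 (3), Tcf12, Id1 and Id3. With lists of equal length the counts were 9 for plasma cells (11.2%, against 10.0% of all regions) and 7 for immature B cells (8.75%, against 9.74%), and all regions again turned round alike. Over all 3 populations, 12 member regions were called in pc-BMACs alone (11.1%, against 4.53% of all assigned regions), 14 in immature B cells alone (13.0%, against 13.6%), 6 in pc-BMACs and plasma cells (5.56%, against 3.73%) and 7 in the plasma cells and immature B cells (6.48%, against 4.68%). The class of pc-BMACs and immature B cells held 1 (0.926%, against 1.07%), and in 36 the replicates of some population differed (33.3%, against 40.2%).

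**Figure D5:**
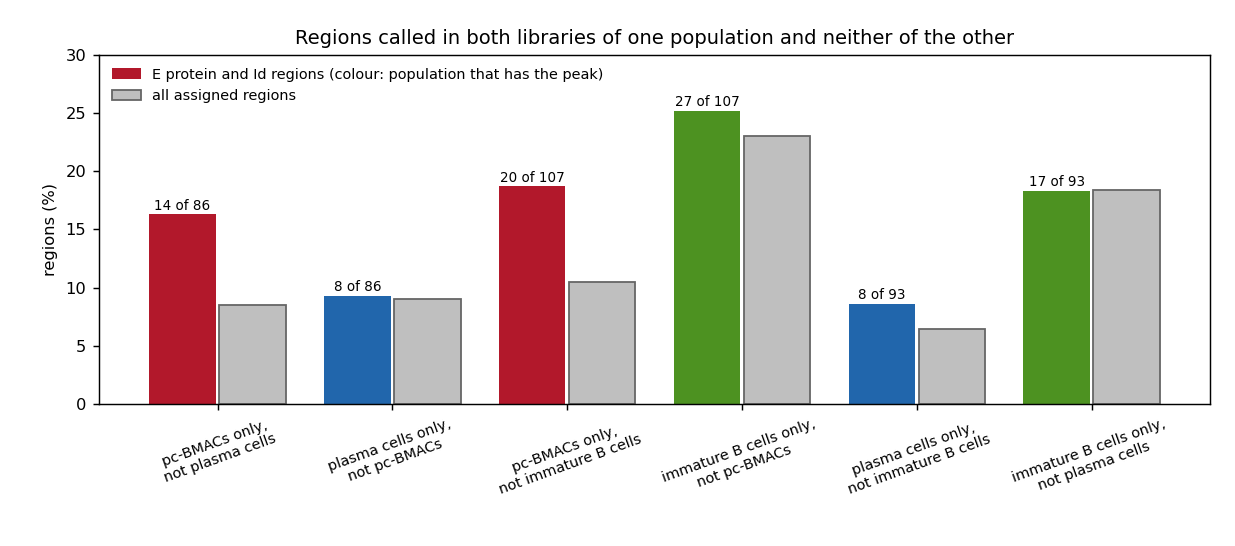
Bars give the percentage of regions called in both libraries of 1 population and in neither library of the other, for E protein and Id regions (coloured by the population that has the peak, with counts above) and for all assigned regions (grey). The pc-BMAC bars (16.3% and 18.7%) stand above their grey bars (8.48% and 10.5%), and the immature B cell bars lie close to theirs. With peaks of at least 300 bp the pc-BMAC shares were 12.7% and 13.8%, against 10.2% and 10.5% of all regions.

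Other genes of the pathway were counted in the same way. The 9 helix-loop-helix partner genes had 45 regions, with no region at Id4, and of the 34 called in pc-BMACs or plasma cells 3 were of pc-BMACs (8.82%, against 8.48% of all regions) and 5 of plasma cells (14.7%, against 8.99%). Bhlhe40, a repressor induced in activated lymphocytes, had 7 and 7 of 15 regions in pc-BMACs, 7 and 8 in the plasma cells, and 15 and 14 in the immature B cells. Tal2 had 5 and 7 of 8 regions in pc-BMACs, 3 and 1 in the plasma cells, and 6 and 5 in the immature B cells. Bhlhe41 had 7 and 6 of 12 regions in pc-BMACs, 9 and 8 in the plasma cells, and 8 and 6 in the immature B cells. Tal1 had 2 and 2 of 3 regions in pc-BMACs, 2 and 3 in the plasma cells, and 1 and 0 in the immature B cells. The 6 cofactor genes had 47 regions, and of the 35 called in pc-BMACs or plasma cells 5 were of pc-BMACs (14.3%, against 8.48%) and 3 of plasma cells (8.57%, against 8.99%). Cbfa2t2, which encodes a corepressor of the ETO family, had 7 and 6 of 8 regions in pc-BMACs, 1 and 2 in the plasma cells, and 3 and 3 in the immature B cells. Its relative Cbfa2t3 had 14 and 13 of 21 in pc-BMACs, 18 and 16 in the plasma cells, and 12 and 9 in the immature B cells.

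The 12 target genes of E proteins in B cell development had 129 regions, with none at Vpreb1. Calls numbered 58 and 39 in pc-BMACs, 62 and 64 in the plasma cells, and 96 and 91 in the immature B cells. As shares these were 45.0% and 30.2% in pc-BMACs, against 56.3% and 48.8% of all regions, 48.1% and 49.6% in the plasma cells, against 52.8% and 51.3%, and 74.4% and 70.5% in the immature B cells, against 73.8% and 64.9%. Of the 90 regions called in pc-BMACs or plasma cells, 2 were of pc-BMACs (2.22%, against 8.48% of all regions) and 16 of plasma cells (17.8%, against 8.99%). Pax5, which maintains B cell identity, had 7 and 5 of 20 regions in pc-BMACs, 10 and 8 in the plasma cells, and 15 and 14 in the immature B cells. Il7r, a receptor chain for interleukin-7, had 0 and 0 of 8 in pc-BMACs, 3 and 4 in the plasma cells, and 8 and 6 in the immature B cells. Foxo1, a transcription factor of early B cells, had 21 and 14 of 37 in pc-BMACs, 15 and 13 in the plasma cells, and 24 and 24 in the immature B cells. Ebf1, which works with Tcf3 to set up the B lineage programme, had 24 and 18 of 46 in pc-BMACs, 25 and 29 in the plasma cells, and 33 and 32 in the immature B cells.

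Marker genes of the cell types were checked in the same way, with each count also given as a share of the markers' regions. Over all assigned regions the called shares were 56.3% and 48.8% in pc-BMACs and 52.8% and 51.3% in the plasma cells. In the immature B cells they were 73.8% and 64.9%. The 6 plasma cell markers had 40 and 39 called regions in pc-BMACs, 42 and 40 in the plasma cells, and 44 and 40 in the immature B cells, and these counts overlapped between the populations. Of 61 regions these were 65.6% and 63.9%, 68.9% and 65.6%, and 72.1% and 65.6%, in the same order. The 6 B cell markers had 37 and 27 in pc-BMACs, 41 and 43 in the plasma cells, and 55 and 52 in the immature B cells. Of 73 regions these were 50.7% and 37%, 56.2% and 58.9%, and 75.3% and 71.2%. Cd79a, with 1 region, had a call in every list but pc-BMACs 2. Cd79b had its 2 regions called in every list. Ms4a1 had 2 and 2 of 3 regions in pc-BMACs, 2 and 2 in the plasma cells, and 3 and 2 in the immature B cells. The 6 plasmacytoid dendritic cell markers, which bear on Tcf4, had 27 and 27 in pc-BMACs, 27 and 25 in the plasma cells, and 38 and 35 in the immature B cells. Of 49 regions these were 55.1% and 55.1%, 55.1% and 51%, and 77.6% and 71.4%. The 7 natural killer and innate lymphoid markers, which bear on Id2, had 11 and 8 in pc-BMACs, 19 and 17 in the plasma cells, and 15 and 12 in the immature B cells, with no region at Ncr1. Of 27 regions these were 40.7% and 29.6%, 70.4% and 63%, and 55.6% and 44.4%. T cell markers had 7 to 9 calls in every list, or 50% to 64.3% of 14 regions. Monocyte and macrophage markers had 9 and 8 in pc-BMACs, 11 and 11 in the plasma cells, and 23 and 24 in the immature B cells. Of 30 regions these were 30% and 26.7%, 36.7% and 36.7%, and 76.7% and 80%. Neutrophil markers had 1 and 1 in pc-BMACs, 3 and 6 in the plasma cells, and 2 and 2 in the immature B cells. Of 7 regions these were 14.3% and 14.3%, 42.9% and 85.7%, and 28.6% and 28.6%. Erythroid markers had 2 and 1 in pc-BMACs, 8 and 4 in the plasma cells, and 3 and 3 in the immature B cells. Of 9 regions these were 22.2% and 11.1%, 88.9% and 44.4%, and 33.3% and 33.3%. Hba-a1, Hbb-bt, Gata1 and Alas2 were called in plasma cells 1 and nowhere else. The part of other cell types in the member regions was not tested. In bulk samples, fewer cells with an open region and less opening per cell cannot be told apart.

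Some genes had called shares close to those of a member over the 6 lists. Likeness was the Euclidean distance between the percentages of a gene's own regions called, over 4380 genes with 5 or more regions. Among the closest genes to Tcf3 were Syk (distance 9.33 percentage points), Ptpn1 (11.2) and Lpcat1 (11.4). Those to Tcf4 were Plek2 (6.80), Dapp1 (7.58) and St3gal6 (8.55), and those to Tcf12 were Haao (7.09), Elk3 (7.62) and Arntl (8.0). For Id1 they were Nt5c2 (11.1), Gm46353 (11.5) and Lrrc28 (12.4), for Id2 Slc23a2 (10.5) and Sema4b (12.4), and for Id3 Prkag2 (5.19), Cd86 (7.67) and Atf7ip (7.92). These distances describe 6 lists that differ in length and carry no test.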

How the data were processed

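ATAC-seq peak lists of 6 libraries were used, 2 each of pc-BMACs, plasma cells and immature B cells. Per the submitters' processing notes, Bowtie2 2.3.3, HOMER 4.10, bedtools and mm10 were used; no source names their roles or the peak settings. The score in the deposited lists is 1000 in every row, so only positions and widths (at least 150 bp) were used, and no depth or interval could be computed. Peaks sharing 1 bp were merged and assigned to the nearest of the protein-coding intervals of the RefSeq table (GRCm38.p6) within 100 kb, with ties broken by shared bp; no member region had a tie. A library had a region when a peak overlapped it. A region of 1 group was called in both its libraries and neither of the other. Python 3.11.15, pandas 2.3.3 and numpy 2.4.6 were used. Merging and assignment were tested on simulated data, and merging alone was also tested against bedtools. All 6 genes are named; so are up to 4 genes a list with most group regions, up to 3 closest genes of each member, and regions of 1 group or within 1 kb of a member. The members and lists were chosen with earlier results of these data known. Alternatives were coverage of 50% of a region, lists of equal length, a 300 bp minimum width, merging within 100 bp, a 10 kb limit, genes of any type, leaving out each library, and pairs sharing an R number. Sequence of distal regions was not used here. Some genes that these rules name are not reported here.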

Additional observations from a re-analysis of the deposited data

How the results depend on the processing

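The counts of member regions were recomputed under each alternative that could change them; leaving out a library touched the 4 counts of its own comparisons. When peaks had to cover 50% of a region, 10 regions were shared by all 6 libraries. Plasma cells then had 5 against pc-BMACs (6.76%, against 6.9% of all regions). The share of all regions called in all 6 libraries was not computed under the alternatives. With the widest 34070 peaks of each list, plasma cells had 5 regions against pc-BMACs (6.17%, against 8.53% of all regions). Immature B cells had 15 against pc-BMACs (16.3%, against 15.1%) and 7 against plasma cells (8.75%, against 9.74%). In these lists the balance of pc-BMACs minus immature B cells turned to 4 and that of plasma cells minus immature B cells to 2. With peaks of at least 300 bp, 18 regions were shared by all. Between pc-BMACs and plasma cells, pc-BMACs had 8 (12.7%, against 10.2% of all regions) and plasma cells 5 (7.94%, against 6.35%). Against immature B cells pc-BMACs had 12 (13.8%, against 10.5%). Immature B cells had 13 against pc-BMACs (14.9%, against 18.9%) and 10 against plasma cells (13.2%, against 17.5%). With genes within 10 kb, plasma cells had 5 against pc-BMACs (7.94%, against 7.97% of all regions). With genes of any type, pc-BMACs had 9 (15.0%, against 8.43% of all regions) and plasma cells 4 of the pair (6.67%, against 9.42%). Plasma cells then had 5 against immature B cells (7.69%, against 6.35%). The cause was not tested. These rules leave fewer peaks or regions, except the rule of 50% coverage. That rule kept all 108 member regions and dropped calls that covered less of a region. Member regions numbered 95 with lists of equal length and 88 with peaks of at least 300 bp. There were 79 with genes within 10 kb and 77 with genes of any type.

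Leaving out each library gave 15 to 18 pc-BMAC regions against plasma cells (18.3% to 21.2%, against 10.8% to 17.9% of all regions). Plasma cells had 8 to 14 there (9.41% to 16.5%, against 10.2% to 15.0%). Against immature B cells, pc-BMACs had 20 to 25 (19.2% to 24.8%, against 11.5% to 16.5%). Immature B cells had 27 to 33 there (25.5% to 31.7%, against 24.6% to 35.4%). In the last comparison plasma cells had 8 to 13 (8.89% to 14.9%, against 7.29% to 11.1%). Immature B cells had 19 to 26 there (21.1% to 28.3%, against 22.5% to 31.7%). The highest plasma cell values came without plasma cells 1 (14, against pc-BMACs) and without immature B cells 1 (13, against immature B cells). Against plasma cells, the highest immature B cell value came without plasma cells 2 (26). The pairing by the R number in the descriptions leaves 1 pair per comparison, with no test. What that number stands for is not stated. This pairing gave 13 plasma cell regions against pc-BMACs (17.3%, against 21.8% of all regions). It gave 14 against immature B cells (16.7%, against 12.6%). In the opposite direction pc-BMACs had 24.0% (against 15.4%) and immature B cells 26.2% (against 30.8%). Between pc-BMACs and immature B cells, pc-BMACs had 24.3% (against 18.0%) and immature B cells 32.0% (against 37.5%). These values are given for those pairs alone. Unknown depth limits every absent call. Without pc-BMACs 2, Tcf12 had 6 and Tcf4 had 7 pc-BMAC regions against plasma cells, where both libraries gave 6 and 4. Over all regions that share was 17.9% without pc-BMACs 2 and 8.48% with both libraries.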
